A study of Mus musculus with 9 samples.

Results

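The immunoglobulin genes of mouse liver were taken as the gene IDs with the biotype IG_V_gene or IG_C_gene in GENCODE M21, an annotation of GRCm38 (mm10). These were 231 of the 54532 gene IDs counted, 218 variable (V) genes and 13 constant genes. Membership rests on biotype alone, while the group itself was chosen with earlier results of these data known. The V genes were 113 of the heavy chain locus on chromosome 12, 102 of the kappa locus on chromosome 6 and 3 of the lambda locus on chromosome 16. The constant genes were 8 of the heavy chain, the single kappa gene Igkc and 4 of lambda. In all, 208 of the 231 had at least 1 count in some library (196 V and 12 constant genes), and 23 had none, which were 22 V genes and Iglc4. A filter on low counts left 104 of them for testing, 94 V and 10 constant genes.

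Liver RNA of 9 mice, all labelled as male ApoE-/- animals on a C57BL/6 background, was counted per gene in 3 groups of 3. In 3 of the libraries the counts went against the labelled sex or genotype, as given with the library totals. The HFD + IgG1 mice received a high-fat diet from 4 weeks of age for 20 weeks, chow for 1 week, and then 3 mg of recombinant human IgG1 into the peritoneum at 25, 26 and 27 weeks of age, and were killed at 29 weeks. The HFD + PBS mice had the same diet and PBS at the same ages. The normal diet mice were the control group, and the sources used here do not give their age at death or any injections. The label ApoE-/- was common to every group, so the design has no group of livers with ApoE. The target of the injected antibody is not named, and 2 of the 3 libraries of the HFD + IgG1 group, replicates 6 and 7, carry IgG2 and IgG3 in the treatment label while their titles and the series design place them in that group. The livers sequenced were picked by their lipid staining and triglyceride results, so each group holds chosen livers.

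A B cell builds its antibody by joining 1 V segment to short D and J segments in the heavy chain locus, and 1 V to 1 J segment in the kappa or lambda locus. The joined V exon is then transcribed with a constant gene, and in the heavy chain that gene sets the class: Ighm and Ighd for the IgM and IgD of a B cell that has not switched, Ighg1, Ighg2b, Ighg2c and Ighg3 for IgG, Igha for IgA and Ighe for IgE. Plasma cells carry far more of this RNA per cell than other B cells, and IgA that reaches the liver is carried into bile by the receptor made from Pigr. The injected antibody is a protein, while the counts are of RNA from the animals' own genes. In whole liver, fewer cells of a type and less RNA per cell cannot be told apart.

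Library totals ran from 16215194 to 18538463 counts. In all, 3 libraries went against their labels or their group. Apoe had 235888 counts in HFD + IgG1 replicate 5, against 225 to 1655 in the other 8, and HFD + PBS replicate 6 and normal diet replicate 5 held 10970 and 17065 Xist counts with no count of 4 Y-linked genes. Results are therefore also given without these 3. That leaves HFD + IgG1 with replicates 6 and 7 alone, whose treatment labels read IgG2 and IgG3. B lineage RNA was present in every library at low counts: the B cell antigen receptor gene Cd79a had 13 to 35 counts in the HFD + IgG1 libraries, 40 to 70 in HFD + PBS and 26 to 41 in normal diet. Of 7 listed genes of B cell precursors, Igll1, Vpreb2 and Rag2 were at 0 in all 9 libraries, and Rag1 was counted in 1 library (3 counts, normal diet replicate 6). The other members were detected: Vpreb1 had 0 to 4 counts and Vpreb3 1 to 7. Dntt, the polymerase that adds bases where V, D and J segments are joined, had 48, 22 and 14 counts in HFD + IgG1, 65, 32 and 48 in HFD + PBS, and 4, 71 and 6 in normal diet. A count of 0 allows up to 3 counts in a library.

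The 231 genes took 0.0323%, 0.064% and 0.0184% of all counts in the HFD + IgG1 livers (replicates 5, 6 and 7). They took 0.14%, 0.178% and 0.0765% in the HFD + PBS livers (replicates 3, 4 and 6), and 0.063%, 0.0603% and 0.0404% in the normal diet livers (replicates 4, 5 and 6). These shares rest on 3348 to 11569 counts in HFD + IgG1, 13434 to 32942 in HFD + PBS and 6981 to 10992 in normal diet. Levels below are in CPM, counts scaled to the library total times edgeR's TMM factor. Summed over the constant genes, the level was 296, 495 and 157 CPM in HFD + IgG1, 919, 1480 and 528 in HFD + PBS, and 550, 477 and 312 in normal diet. Every HFD + IgG1 liver was below every HFD + PBS liver, while the lowest HFD + PBS liver lay within the normal diet range. On the log2 scale the group means differed by -1.65 between HFD + IgG1 and HFD + PBS, by 1.04 between HFD + PBS and normal diet and by -0.61 between HFD + IgG1 and normal diet. Without those 3 libraries the differences were -2.06, 1.49 and -0.57. These sums were described and not tested, and the HFD + PBS libraries serve both of the first 2 differences. Summed over the V genes, the level was 77.4, 123 and 45 CPM in HFD + IgG1, 194, 402 and 165 in HFD + PBS, and 98.3, 135 and 107 in normal diet, so that the HFD + PBS livers overlapped with neither group.

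**Figure D1:**
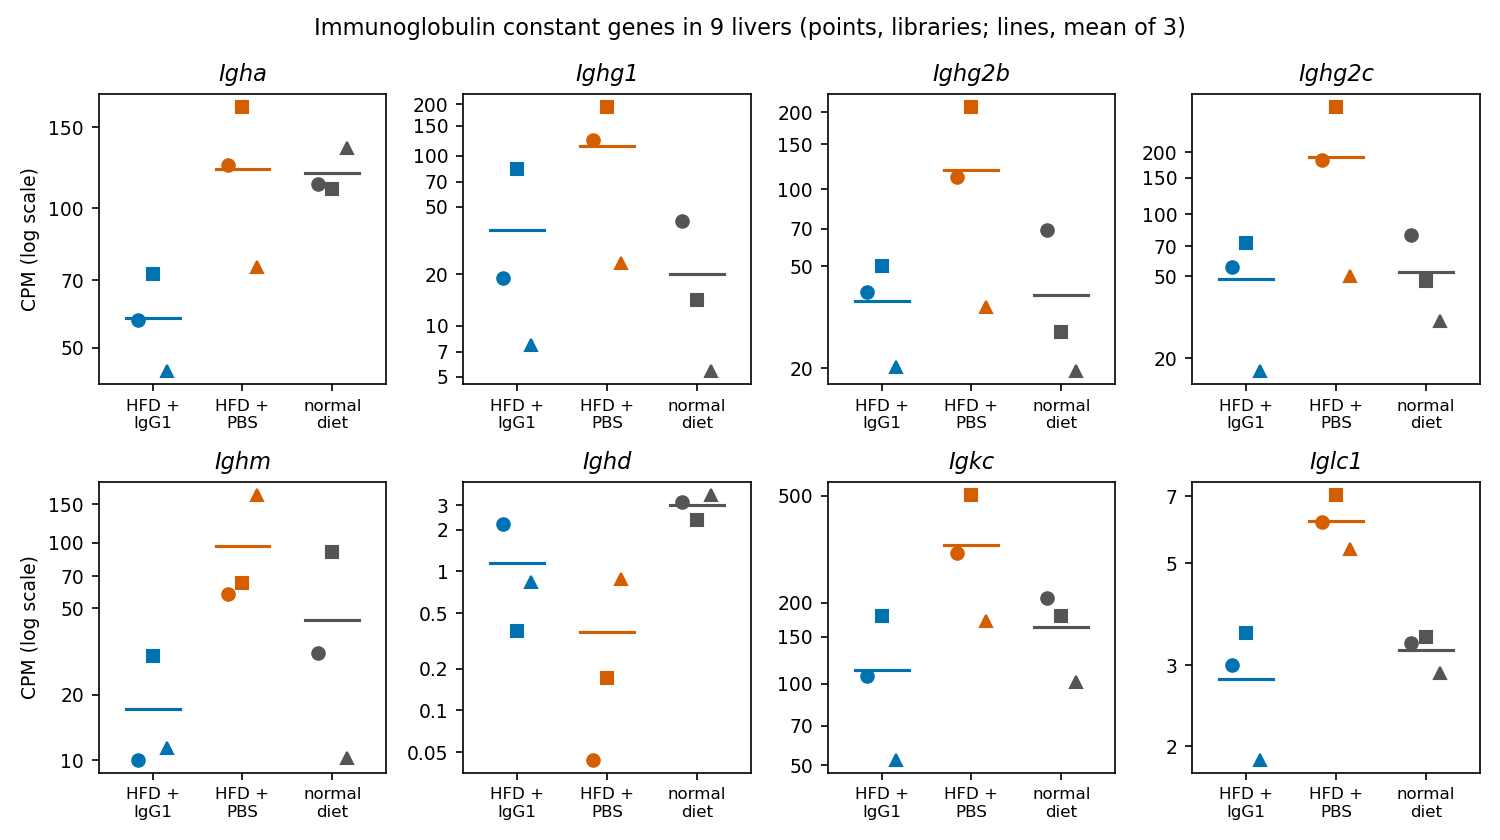
Level of 8 constant genes in CPM on a log axis, with a point for each library (circle, square and triangle in order of replicate number) and a line at the mean of the 3 libraries of HFD + IgG1, HFD + PBS and normal diet. The Igha, Ighm and Iglc1 points of HFD + IgG1 all lie below those of HFD + PBS, and the Ighd points of HFD + PBS all lie below those of normal diet.

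Among heavy chain classes, IgG and IgA together carried most of the RNA in every liver. To compare genes of unequal length, each gene's CPM was divided by the length of a transcript of it, and shares were taken of the heavy chain sum. Igha made up 31.4%, 23.9% and 44.8% of that sum in HFD + IgG1, 21.1%, 17.5% and 24.4% in HFD + PBS, and 34.2%, 40.7% and 66.7% in normal diet. The share of Igha in every HFD + PBS liver was thus below that in every normal diet liver, and HFD + IgG1 overlapped with both. The 4 IgG genes together held 62.8%, 68.6% and 45.6% in HFD + IgG1, 71.6%, 77.3% and 35.6% in HFD + PBS, and 57.4%, 33.2% and 27.2% in normal diet. Ighm held 4.09%, 7.36% and 8.46% in HFD + IgG1, 7.29%, 5.05% and 39.6% in HFD + PBS, and 6.95%, 24.9% and 3.75% in normal diet. The outlying IgM shares, 39.6% and 24.9%, were those of the pair of libraries with Xist and no Y-linked counts, and what part that had in them was not tested. Among the IgG genes Ighg2c had the highest level per kilobase in 7 of the 9 livers, Ighg1 in HFD + IgG1 replicate 6 and Ighg2b in HFD + IgG1 replicate 7.

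**Figure D2:**
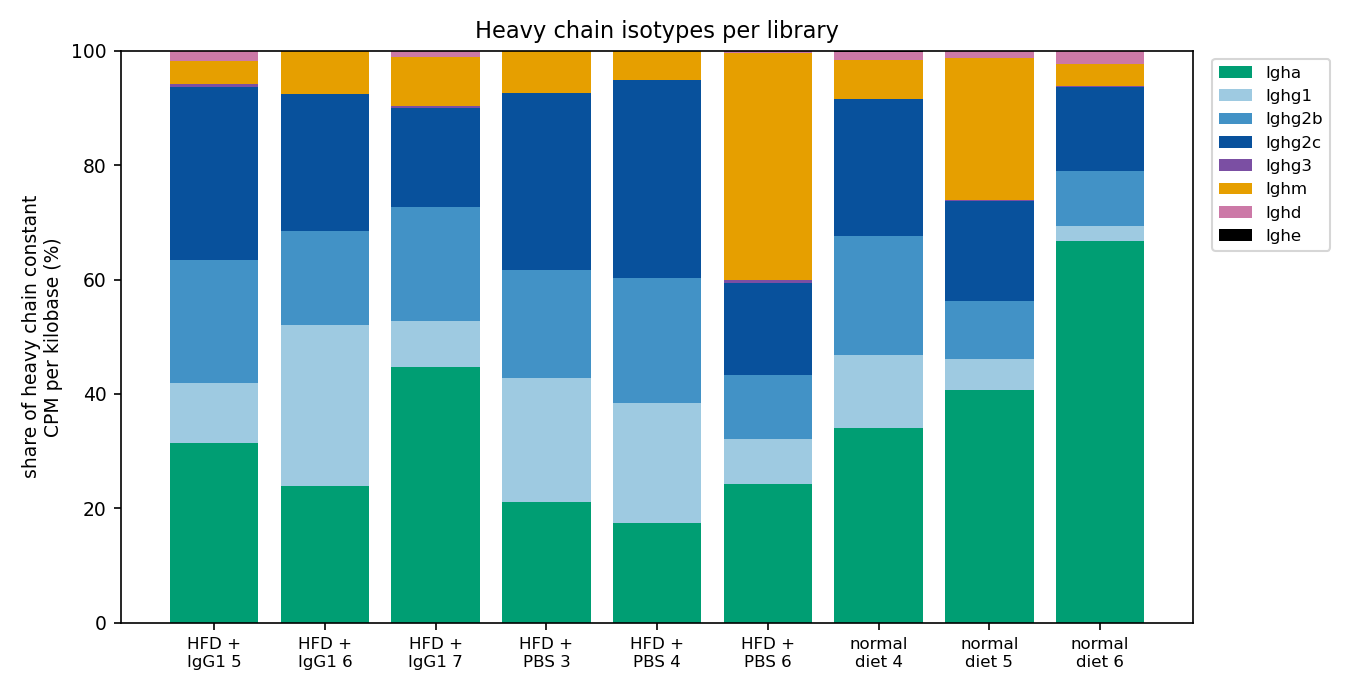
Share of each heavy chain constant gene in the heavy chain sum of CPM per kilobase, in percent, as stacked bars for each library of HFD + IgG1, HFD + PBS and normal diet, with the replicate number under each bar. Ighm stands out in HFD + PBS replicate 6 and normal diet replicate 5, and Igha in normal diet replicate 6.

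Mouse IgG genes are close relatives, so it matters for these shares whether reads can be told apart. Ighg2b and Ighg2c were 85.9% identical over their coding sequence, and other IgG pairs 75.4% to 77.7%. Of the 50-base stretches of the transcripts, 5.27% in Ighg2c and 5.26% in Ighg2b also occurred in another gene, while no stretch of 100 bases in any constant gene did. The sources used here do not give the read length. The hinge, the flexible stretch whose cysteines join the heavy chains to each other, is encoded by a small exon. Its length differs between these genes, from 39 bases in Ighg1 to 66 in Ighg2b. The hinge exons of GENCODE M21 are shown for that reason (GRCm38, minus strand of chromosome 12, cysteine codons in capitals): Ighg1 at chr12:113329844-113329882 with 4 cysteine codons, Ighg2b at chr12:113307261-113307326 with 4, Ighg2c at chr12:113288263-113288325 with 3 and Ighg3 at chr12:113360529-113360576 with 1.
Ighg1: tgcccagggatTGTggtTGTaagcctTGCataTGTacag
Ighg2b: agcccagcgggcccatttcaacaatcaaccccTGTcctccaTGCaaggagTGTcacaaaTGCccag
Ighg2c: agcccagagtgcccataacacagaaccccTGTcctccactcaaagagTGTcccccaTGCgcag
Ighg3: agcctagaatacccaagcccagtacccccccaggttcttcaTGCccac

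The comparison of HFD + PBS with normal diet asks what the high-fat diet with PBS did, although age and injection may differ between the groups too. IgG constant RNA was higher on average in HFD + PBS, IgA RNA was at about the same level, and IgD RNA was lower in each liver, and edgeR called none of these differences. Ighg2c, the main IgG2 gene of C57BL/6 mice, had 183, 333 and 50 CPM in HFD + PBS, against 79.6, 47.5 and 30.3 in normal diet, and the log2 fold change was 1.85 (SE 0.75, edgeR adjusted p = 0.219). A single HFD + PBS liver, replicate 6, lay inside the normal diet range. Ighg2b had 112, 210 and 34.8 CPM against 69.2, 27.6 and 19.5 (log2 fold change 1.62, SE 0.71, edgeR adjusted p = 0.243). Ighg1 had 124, 194 and 23.5 CPM against 41, 14.2 and 5.4 (log2 fold change 2.49, SE 1.19, edgeR adjusted p = 0.283), and the same liver again fell between the normal diet values. Igha averaged 122 ± 45.8 CPM in HFD + PBS and 119 ± 13.9 CPM in normal diet (SD, n = 3 each), with a log2 fold change of 0.03 (SE 0.28). Ighm had 58.1, 65.1 and 165 CPM against 31.1, 91 and 10.3, a log2 fold change of 1.12 (SE 0.82) that was 1.60 without those 3 libraries.

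Ighd was the only constant gene whose fitted fold change was negative in that comparison. It had 1, 3 and 17 counts in HFD + PBS (0.0442, 0.172 and 0.877 CPM), against 52, 42 and 59 counts in normal diet (3.18, 2.34 and 3.54 CPM). Every HFD + PBS liver was lower than every normal diet liver, while its Igkc, IgG and V levels were higher on average. The log2 fold change was -3.04 (SE 0.89, edgeR adjusted p = 0.126, unadjusted p = 0.00644), and -4.91 without those 3 libraries. Among genes of mature B cells chosen after their values were seen, Fcer2a, the CD23 receptor of resting B cells, had 0, 0 and 2 counts in HFD + PBS and 10, 8 and 21 in normal diet. The transcription factor gene Pax5 had 3, 2 and 23 counts in HFD + PBS and 29, 38 and 22 in normal diet. HFD + PBS replicate 6 was thus unlike the others of its group. Cd37, another B cell marker, went the other way, with 533, 167 and 346 counts in HFD + PBS and 124, 151 and 99 in normal diet. Of the 15 listed B cell markers 12 were tested, 4 with a positive and 8 with a negative fold change (median -0.21), and edgeR called none of them, with 1 higher and 0 lower at an unadjusted p under 0.05. The 15 plasma cell markers gave 13 tested genes, 9 positive and 4 negative (median 0.14), with none called by edgeR and 2 higher and 1 lower at an unadjusted p under 0.05.

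Light chain constant RNA was nearly all kappa. Igkc made up 95.6% to 97.7% of light chain constant counts over the 9 libraries, with a median of 96.8%, and no group stood apart. Igkc had 307, 502 and 171 CPM in HFD + PBS, against 208, 179 and 102 in normal diet, and the log2 fold change was 1.00 (SE 0.51, edgeR adjusted p = 0.294). Iglc1, the most counted lambda constant gene, had 6.14, 7.03 and 5.36 CPM in HFD + PBS, against 3.36, 3.45 and 2.88 in normal diet. Its groups did not overlap and its spread was small, and the log2 fold change was 0.93 (SE 0.28, edgeR adjusted p = 0.135). Iglc2 ran from 1.24 to 4.23 CPM in HFD + PBS and from 1.22 to 1.89 in normal diet, and Iglc3 stayed at 9 counts or fewer in every library. The ratio of light chain to heavy chain constant counts was 0.535 to 0.603 in HFD + IgG1, 0.506 to 0.53 in HFD + PBS and 0.524 to 0.631 in normal diet.

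Over the 104 tested genes, 95 had a positive fold change in HFD + PBS against normal diet, and the median was 1.06 over constant genes and 1.07 over V genes, against 0 over all 14763 genes tested. Without HFD + PBS replicate 4 the median over tested members was 0.59, against 1.07 with it. edgeR called none of the 104 at an adjusted p under 0.05, and none of all genes (0%). At an unadjusted p under 0.05, 28 of the 104 were higher, which is 26.9% against 9.41% of all genes, and 1 was lower (Ighd), which is 0.962% against 11.4%. V and constant genes are transcribed together in the same cells, so the 104 are not independent of each other. The groups did not overlap for 21 genes that were higher (20.2%, against 13% of all genes) and for Ighd (against 15.3%). The 29 members at an unadjusted p under 0.05 were 14 without HFD + PBS replicate 4 and 17 without normal diet replicate 6. Without HFD + IgG1 replicate 6 edgeR called 6 of 123, all higher, or 4.88%, near the 3.79% of all genes called there. DESeq2 called 11 of them, 10 higher and 1 lower, which is 10.6% against 8.02% of all genes, and limma-voom called 0. edgeR called 4 of 208 with no filter on low counts (1.92%, against 1.03% of all genes) and 1 of 96 with only the 6 libraries compared (1.04%, against 1.27%). Heavy V genes, with a median of 1.06 over 39 genes, and kappa V genes, with 1.14 over 52, lay at like values. The kappa genes with the smallest p were Igkv6-23, Igkv16-104 and Igkv5-48. Igkv6-23 had 57, 82 and 157 counts in HFD + PBS, against 14, 16 and 16 in normal diet (log2 fold change 2.49, SE 0.49, edgeR adjusted p = 0.0780). Igkv16-104 had 44, 43 and 49 counts against 2, 2 and 10 (log2 fold change 3.03, SE 0.67, edgeR adjusted p = 0.0786). Igkv5-48 had 137, 99 and 40 counts against 19, 13 and 9 (log2 fold change 2.5, SE 0.57, edgeR adjusted p = 0.0835). None of the 3 overlapped between the groups. The smallest p values on the negative side after Ighd were those of Igkv2-109, with 9, 38 and 9 counts against 24, 13 and 28, and of Ighv9-2, with 3, 4 and 11 against 3, 12 and 12, both of which overlapped.

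Markers of other immune cells mostly had positive fold changes in HFD + PBS as well, and edgeR called none of them. All 10 neutrophil markers, all 8 macrophage markers and 8 of 10 T cell markers were positive. The groups did not overlap for 9 neutrophil, 7 macrophage and 0 T cell markers, and 6, 4 and 0 of them had an unadjusted p under 0.05. The summed neutrophil level was 479 to 5190 CPM in HFD + PBS and 37.2 to 244 in normal diet, the macrophage level 1500 to 1690 and 907 to 1140, and the T cell level 18.6 to 52.4 and 14.2 to 42.6. Cxcl13, a chemokine that draws B cells into follicles, had 490, 3531 and 871 counts in HFD + PBS and 168, 254 and 164 in normal diet. Summed over 15 B cell markers the level was 28.5 to 52.1 CPM in HFD + PBS and 32.6 to 43.5 in normal diet. The part of these cells in the immunoglobulin levels was not tested.

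The comparison of HFD + IgG1 with HFD + PBS asks what the injected antibody did in livers of mice on the same diet. Most immunoglobulin genes tested had a negative fitted fold change in HFD + IgG1, across classes and both light chains, with Ighd the exception among constant genes, and edgeR called none of them. Igha had 57.3, 72.2 and 44.5 CPM in HFD + IgG1, against 124, 166 and 74.8 in HFD + PBS. The groups did not overlap, and the log2 fold change was -1.07 (SE 0.28, edgeR adjusted p = 0.140). Ighm had 10.1, 30.2 and 11.4 CPM against 58.1, 65.1 and 165, again without overlap (log2 fold change -2.47, SE 0.86, edgeR adjusted p = 0.156). Without those 3 libraries the Ighm log2 fold change was -1.59. Ighg2c had 55.4, 72.8 and 17.3 CPM in HFD + IgG1, against 183, 333 and 50 in HFD + PBS (log2 fold change -1.96, SE 0.75, edgeR adjusted p = 0.178). Ighg2b had 39.8, 50.3 and 20.2 CPM against 112, 210 and 34.8 (log2 fold change -1.69, SE 0.71, edgeR adjusted p = 0.198). Ighg1 had 19, 83.3 and 7.67 CPM against 124, 194 and 23.5 (log2 fold change -1.63, SE 1.15, edgeR adjusted p = 0.410). All 3 IgG genes overlapped between the groups, through HFD + PBS replicate 6, which lay below HFD + IgG1 replicate 6 in each of them and below replicate 5 in Ighg2c and Ighg2b. Without HFD + IgG1 replicate 6 the Ighg1 log2 fold change was -3.10.

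Igkc had 107, 179 and 52.4 CPM in HFD + IgG1, against 307, 502 and 171 in HFD + PBS, and the log2 fold change was -1.53 (SE 0.51, edgeR adjusted p = 0.146). HFD + IgG1 replicate 6 lay just above HFD + PBS replicate 6. Iglc1 had 3, 3.53 and 1.87 CPM against 6.14, 7.03 and 5.36, without overlap (log2 fold change -1.14, SE 0.29, edgeR adjusted p = 0.140). Ighd went the other way, with 31, 7 and 14 counts in HFD + IgG1 and 1, 3 and 17 in HFD + PBS, but the groups overlapped and the log2 fold change of 1.62 had an SE of 0.90 (edgeR adjusted p = 0.284). Ighg3 had 7 to 14 counts in HFD + IgG1 and 3 to 32 in HFD + PBS, and Ighe 0 to 2 and 0 to 12, too few to compare.

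Of the 104 tested genes, 4 had a positive and 100 a negative fold change in HFD + IgG1 against HFD + PBS. The median was -1.40 over constant genes and -1.53 over V genes, against 0.04 over all genes tested. Without HFD + PBS replicate 4 the median over tested members was -0.96, against -1.53 with it. edgeR called none of the 104 and none of all genes (0%), with a smallest adjusted p of 0.140. At an unadjusted p under 0.05, 49 of the 104 were lower, which is 47.1% against 11.6% of all genes, and none was higher, against 12.6% of all genes. Here too the 104 are not independent of each other. The groups did not overlap for 30 genes that were lower (28.8%, against 11.2%) and for no gene that was higher (against 15.3%). The 49 members at an unadjusted p under 0.05 were 24 without HFD + PBS replicate 4 and 26 without HFD + IgG1 replicate 7. DESeq2 called 22 of them, all lower, which is 21.2% against 8.57% of all genes, and limma-voom called 0. With no filter on low counts edgeR called 5 of 208 (2.4%, against 0.215% of all genes). Without HFD + IgG1 replicate 6, edgeR called 20 of 123 tested, all lower, or 16.3%, close to the 15.5% of all genes that it called there. Among these 20 were Igha, Igkc, Iglc1 and Iglv1.

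**Figure D3:**
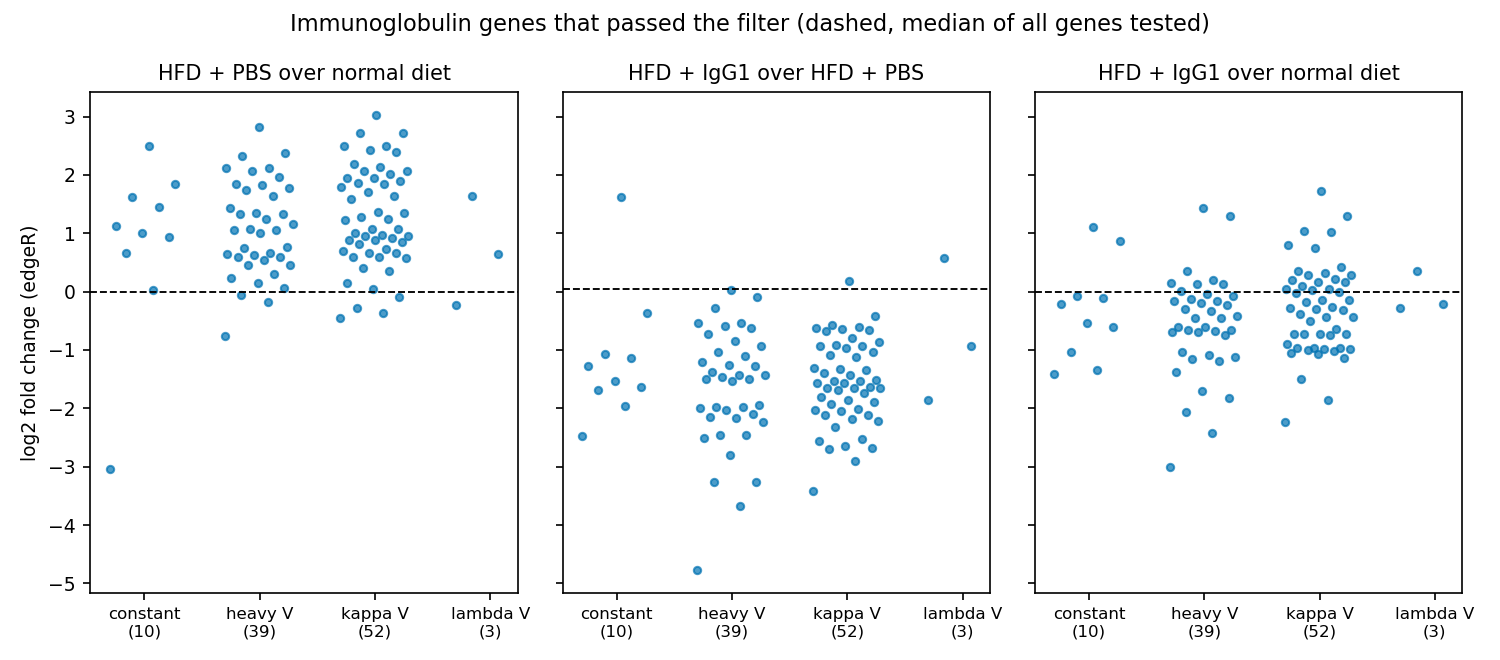
Log2 fold change of each of the 104 tested immunoglobulin genes, by class, in the 3 comparisons, each with the first-named group over the second; the dashed line is the median of all genes tested. In HFD + PBS over normal diet 95 genes lie above 0, in HFD + IgG1 over HFD + PBS 100 lie below 0, and both panels use the HFD + PBS libraries.

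The V genes with the smallest p were again kappa genes. Igkv6-23 had 7, 22 and 12 counts in HFD + IgG1, against 57, 82 and 157 in HFD + PBS (log2 fold change -2.64, SE 0.49, edgeR adjusted p = 0.140). Igkv6-15 had 6, 18 and 2 counts against 51, 145 and 119 (log2 fold change -3.42, SE 0.70, edgeR adjusted p = 0.140). Igkv3-2 had 18, 19 and 5 counts against 114, 101 and 168 (log2 fold change -2.90, SE 0.61, edgeR adjusted p = 0.140). None of these 3 overlapped between the groups. Igkv6-15 and Igkv6-23 are of the same family, and 15.8% and 35.6% of their 50-base stretches occur in another gene. Igkv5-39, among the most expressed kappa V genes, had 9, 29 and 7 counts in HFD + IgG1 and 92, 138 and 73 in HFD + PBS (log2 fold change -2.56, SE 0.57, edgeR adjusted p = 0.140). The positive side held, besides Ighd, the lambda gene Iglv2, with 6, 23 and 7 counts against 9, 4 and 15, and Igkv8-21, with 24, 2 and 3 against 15, 10 and 9, and both overlapped.

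Several partners of immunoglobulin in plasma cells were lower on average in HFD + IgG1, while other genes of the plasma cell list were higher. Jchain, whose product links IgA and IgM into polymers, had 510, 778 and 297 counts in HFD + IgG1 and 1571, 1164 and 596 in HFD + PBS (log2 fold change -0.80, SE 0.38, edgeR adjusted p = 0.231). Pou2af1, a coactivator of immunoglobulin transcription in B cells, had 14, 19 and 7 counts against 51, 65 and 62, without overlap (log2 fold change -1.90, SE 0.53, edgeR adjusted p = 0.140). Mzb1, an endoplasmic reticulum protein gene of antibody-secreting cells, had 21, 36 and 25 counts against 68, 60 and 39. Tnfrsf17, the BCMA receptor of plasma cells, had 2, 0 and 0 counts against 13, 3 and 10. Sdc1 and Xbp1 are expressed by hepatocytes as well. Sdc1, the CD138 gene, went the other way, with 305, 291 and 336 CPM in HFD + IgG1 and 206, 265 and 285 in HFD + PBS, without overlap (edgeR adjusted p = 0.319). Xbp1, a transcription factor gene of secretory cells, had 252, 318 and 217 CPM in HFD + IgG1 and 276, 526 and 341 in HFD + PBS, and the groups overlapped. Prdx4, another gene of the plasma cell list, had 1191, 1199 and 1403 counts in HFD + IgG1 and 1173, 865 and 952 in HFD + PBS. Sdc1 and Prdx4 had far more counts than Mzb1 or Tnfrsf17, and which liver cells they came from was not tested. Of the plasma cell markers 5 were positive and 8 negative (median -0.74). Of the B cell markers 4 were positive and 8 negative (median -0.50). The groups did not overlap for 3 plasma cell markers that were higher and 4 that were lower, and for no B cell marker. edgeR called none of either list, with 2 higher and 3 lower plasma cell genes and 0 higher and 2 lower B cell genes at an unadjusted p under 0.05. Pigr, the IgA receptor gene, had 2930, 2070 and 2070 CPM in HFD + IgG1, 1630, 1630 and 1700 in HFD + PBS, and 2380, 2130 and 1950 in normal diet. Every HFD + PBS liver thus lay below every liver of both other groups, with an edgeR adjusted p of 0.193 for HFD + IgG1 against HFD + PBS and 0.347 for HFD + PBS against normal diet.

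All 10 neutrophil, all 8 macrophage and all 10 T cell markers had a negative and all 5 hepatocyte markers a positive fold change here, and edgeR called none of them. An unadjusted p under 0.05 was found for 2 neutrophil, 8 macrophage, 3 T cell and 2 hepatocyte markers. Neutrophil markers summed to 13.6, 777 and 21.6 CPM in HFD + IgG1 and to 479 to 5190 in HFD + PBS. In HFD + IgG1, replicate 6 had the most immunoglobulin constant RNA and the most neutrophil RNA. So did replicate 4 in normal diet, though its V gene level was the lowest of that group (98.3 CPM). The order in HFD + PBS was mixed. Its replicate 4 had the most immunoglobulin RNA (1480 CPM over constant genes) and the least neutrophil RNA (479 CPM). Replicate 3 had 919 and 5190 CPM, and replicate 6 had 528 and 1830 CPM. Macrophage markers summed to 464 to 1220 CPM and 1500 to 1690, and T cell markers to 18 to 20 CPM and 18.6 to 52.4. Cxcl13 had 55, 658 and 48 counts in HFD + IgG1 and 490 to 3531 in HFD + PBS. Hepatocyte markers summed to 75600 to 156000 CPM in HFD + IgG1 and 44600 to 77300 in HFD + PBS. The part of these shifts in the immunoglobulin levels was not tested.

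Set against normal diet, the fold changes of HFD + IgG1 were mostly negative and small in the median, and their size depended on single libraries. The median over tested members was -0.32 with all libraries, -0.89 without HFD + IgG1 replicate 6, -0.12 without HFD + IgG1 replicate 7 and -0.17 without normal diet replicate 5. Igha was the clearest difference among constant genes, at 57.3, 72.2 and 44.5 CPM in HFD + IgG1 and 113, 110 and 135 in normal diet, without overlap (log2 fold change -1.04, SE 0.28, edgeR adjusted p = 0.503). Ighd was also without overlap, with 31, 7 and 14 counts in HFD + IgG1 and 52, 42 and 59 in normal diet. Ighg2c averaged 48.5 ± 28.4 CPM in HFD + IgG1 and 52.4 ± 25.0 CPM in normal diet, and Ighg2b 36.8 ± 15.3 and 38.8 ± 26.7 CPM (SD, n = 3 each). Among V genes Igkv3-2 had 18, 19 and 5 counts in HFD + IgG1 and 33, 133 and 48 in normal diet (log2 fold change -2.24, SE 0.60, edgeR adjusted p = 0.503). Ighv1-76 had 0, 2 and 1 counts against 16, 10 and 1 (log2 fold change -3.01, SE 1.16, edgeR adjusted p = 0.635). On the positive side Igkv16-104 had 16, 10 and 7 counts against 2, 2 and 10, Igkv4-53 had 10, 27 and 0 against 2, 5 and 4, and Igkv4-57-1 had 12, 15 and 1 against 7, 2 and 5, and all 3 overlapped. The median over constant genes was -0.37 and that over V genes -0.32, against 0 over all genes. edgeR called none of the 104 and none of all genes (0%), with 0 higher (against 3.83% of all genes) and 3 lower (2.88%, against 3.21%) at an unadjusted p under 0.05. With each library left out in turn 3 to 12 members had such a p, the most without HFD + IgG1 replicate 6. The groups did not overlap for 1 gene that was higher (0.962%, against 5.54% of all genes) and 13 that were lower (12.5%, against 6.41%). With no filter on low counts edgeR called none of 208, against 0.0227% of all genes. DESeq2 called 1 of them, Igkv3-2, which is 0.962% against 0.752% of all genes, and limma-voom called 0.

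The V counts were spread over many genes in every liver, with heavy, kappa and lambda genes counted together. V genes with at least 1 count numbered 132, 156 and 117 in HFD + IgG1, 170, 169 and 154 in HFD + PBS, and 148, 149 and 150 in normal diet. The V counts behind these were 1085, 2305 and 746 in HFD + IgG1, 4399, 7023 and 3193 in HFD + PBS, and 1610, 2422 and 1786 in normal diet. At an equal depth of 746 V counts the expected numbers were 123, 134 and 117 in HFD + IgG1, 134, 131 and 119 in HFD + PBS, and 131, 127 and 128 in normal diet, and the groups overlapped. The genes that carried most counts were similar in number: 50% of the V counts fell on 28, 29 and 23 genes in HFD + IgG1, on 24, 27 and 17 in HFD + PBS, and on 24, 24 and 23 in normal diet. To reach 90% took 81, 92 and 73 genes in HFD + IgG1, 91, 90 and 76 in HFD + PBS, and 86, 85 and 82 in normal diet. The effective number of V genes, the inverse of the summed squared shares, was 72.7, 64.4 and 55.6 in HFD + IgG1, 58.2, 73.4 and 49.1 in HFD + PBS, and 60.8, 57 and 60.4 in normal diet. HFD + PBS replicate 6 had the most concentrated V use of the 9 by this number and by the 50% count. In all 9 libraries 86 V genes had a count, and 14 had one in a single library.

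**Figure D4:**
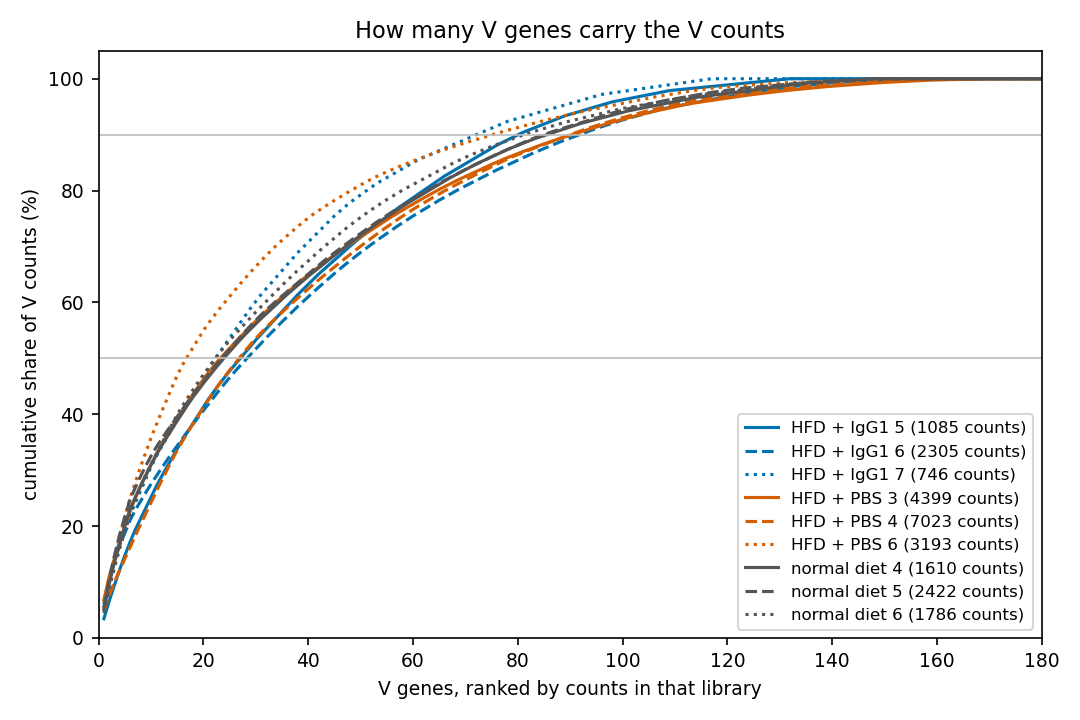
Cumulative share of V counts in percent against the number of V genes, ranked by counts within each library, for the 9 libraries (blue, HFD + IgG1; orange, HFD + PBS; gray, normal diet), with gray lines at 50% and 90%. The curves reach 90% between 73 and 92 genes, and HFD + PBS replicate 6 reaches 50% with the fewest genes, 17.

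No single V gene dominated any liver. The most counted V gene held 3.41%, 6.51% and 6.03% of V counts in HFD + IgG1 (Igkv1-135, Iglv1 and Igkv1-110), 6.8%, 4.77% and 5.26% in HFD + PBS (Iglv1, Iglv1 and Igkv3-2), and 5.16%, 5.49% and 4.42% in normal diet (Igkv1-117, Igkv3-2 and Igkv1-117). The 95% Wilson interval of these shares ran at its widest from 4.54% to 7.98%, in HFD + IgG1 replicate 7, and covers counting error only. Iglv1, the main V gene of lambda light chains, had 21, 150 and 18 counts in HFD + IgG1, 299, 335 and 129 in HFD + PBS, and 71, 75 and 67 in normal diet. In HFD + IgG1 it thus stood high in replicate 6 alone. Its log2 fold change was -1.86 in HFD + IgG1 against HFD + PBS (SE 0.69, edgeR adjusted p = 0.164) and 1.64 in HFD + PBS against normal diet (SE 0.69, edgeR adjusted p = 0.222), with no overlap between HFD + PBS and normal diet. Kappa V genes held 87.5% to 94.4% of light chain V counts, less than the share of Igkc among constant counts.

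The top kappa genes of 5 livers came from the Igkv1 family, and their V exons are shown to tell how far apart such genes are. Igkv1-117 and Igkv1-110 were 96.8% identical over the exon, and Igkv1-135 was 79.6% identical to the first and 80.2% to the second. Of their 100-base stretches 16.1%, 16.2% and 1.36% occurred in another gene, so counts may be split between the first pair. The exons lie on the plus strand of chromosome 6 in GRCm38, and their last 300 bases are printed, at chr6:67610209-67610508 (Igkv1-135), chr6:68121528-68121827 (Igkv1-117) and chr6:68270968-68271267 (Igkv1-110). Capitals mark the 62 positions at which the 3 are not all alike.
Igkv1-135: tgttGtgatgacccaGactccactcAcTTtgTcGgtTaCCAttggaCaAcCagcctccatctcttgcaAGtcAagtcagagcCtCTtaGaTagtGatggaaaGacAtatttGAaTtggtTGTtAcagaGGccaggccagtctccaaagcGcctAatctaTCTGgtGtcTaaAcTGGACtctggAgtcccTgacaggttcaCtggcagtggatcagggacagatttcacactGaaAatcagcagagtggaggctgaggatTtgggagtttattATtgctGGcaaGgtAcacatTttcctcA
Igkv1-117: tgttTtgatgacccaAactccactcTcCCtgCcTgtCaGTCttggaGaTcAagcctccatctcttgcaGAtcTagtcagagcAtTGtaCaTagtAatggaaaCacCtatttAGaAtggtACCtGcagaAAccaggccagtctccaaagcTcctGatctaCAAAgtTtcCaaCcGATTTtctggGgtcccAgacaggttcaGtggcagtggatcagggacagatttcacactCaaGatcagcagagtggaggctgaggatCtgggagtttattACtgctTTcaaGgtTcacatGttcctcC
Igkv1-110: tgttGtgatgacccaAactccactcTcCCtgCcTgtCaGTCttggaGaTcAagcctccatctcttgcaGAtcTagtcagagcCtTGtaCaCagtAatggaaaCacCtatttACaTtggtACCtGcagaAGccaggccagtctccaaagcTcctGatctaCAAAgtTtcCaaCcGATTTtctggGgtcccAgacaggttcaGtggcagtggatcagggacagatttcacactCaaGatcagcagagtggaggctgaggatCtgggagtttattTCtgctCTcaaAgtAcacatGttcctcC

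Iglv1 and Iglv2 are closer still, at 97.4% identity over the V exon, yet had 1165 and 92 counts over the 9 libraries. Of their 100-base stretches 1.71% and 2.01% occurred in another gene. The exons lie on the minus strand of chromosome 16, and their last 300 bases are printed, at chr16:19085017-19085316 and chr16:19260401-19260700, to show how few bases tell the genes apart. Capitals mark the 8 bases that differ.
Iglv1: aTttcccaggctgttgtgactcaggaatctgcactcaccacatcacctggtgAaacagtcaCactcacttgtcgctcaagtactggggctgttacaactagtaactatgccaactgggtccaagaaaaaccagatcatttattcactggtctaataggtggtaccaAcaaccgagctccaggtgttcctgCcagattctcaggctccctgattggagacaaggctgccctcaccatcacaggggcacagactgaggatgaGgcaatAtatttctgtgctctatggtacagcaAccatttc
Iglv2: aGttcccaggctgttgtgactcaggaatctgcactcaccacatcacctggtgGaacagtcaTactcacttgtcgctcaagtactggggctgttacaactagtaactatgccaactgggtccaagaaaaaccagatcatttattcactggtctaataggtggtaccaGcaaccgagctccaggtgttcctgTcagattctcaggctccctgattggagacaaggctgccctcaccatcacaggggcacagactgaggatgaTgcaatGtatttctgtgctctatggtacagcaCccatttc

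The Ighv1 family came first among heavy chain V genes in every liver, while the first kappa family was Igkv1 in 4 livers, Igkv4 in 3, Igkv6 in HFD + PBS replicate 6 and Igkv3 in normal diet replicate 5. The Ighv1 family, with 53 annotated genes, held 45.4% to 59.7% of heavy chain V counts in the 9 libraries, and Ighv9, with 4 genes, 6.01% to 15.1%. Among kappa genes, Igkv1 held 14.4%, 17.1% and 18.6% in HFD + IgG1, 12%, 12.2% and 8.52% in HFD + PBS, and 21.6%, 15.2% and 20.1% in normal diet. Every HFD + PBS liver thus had a smaller Igkv1 share than every liver of the other groups, a split picked out after the values were seen and not tested. Igkv6 held 7.55% to 11.8% in 8 libraries and 21.8% in HFD + PBS replicate 6, where Igkv6-23 was the V gene with the most counts after Igkv3-2. The heavy V genes with the highest mean level were Ighv9-3, Ighv1-26, Ighv1-53, Ighv3-6, Ighv5-17 and Ighv1-9. Ighv1-26 averaged 1.53 ± 0.163 CPM in HFD + IgG1, 4.23 ± 1.16 in HFD + PBS and 2.04 ± 1.09 in normal diet (SD, n = 3 each). Ighv5-17 was uneven within HFD + PBS, with 39, 144 and 31 counts. Of kappa genes, Igkv10-96 averaged 2.43 ± 0.586 CPM in HFD + IgG1, 7.23 ± 4.64 in HFD + PBS and 4.81 ± 1.73 in normal diet, and Igkv1-117 2.99 ± 1.66, 6.53 ± 2.49 and 4.96 ± 0.190 (SD, n = 3 each). Heavy V genes in the nearer part of the locus, the 56 of 113 closest to the constant genes, held 38.2% to 55.1% of heavy V counts.

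Reads of V genes can be ambiguous, which limits statements on single ones. Of the 218 V genes 172 shared at least 1 stretch of 50 bases with another gene, 80 of 217 a stretch of 100 bases and 21 of 217 one of 150 bases. Genes with no shared 100-base stretch held 54.7% of all V counts. For Ighv1-62-2 and Ighv1-71, every stretch of the transcript searched occurred in another gene, so their 22 and 2 counts may belong to other genes. Somatic mutation and the joined D and J segments are not in the reference exons, and counted J genes held 2 to 28 counts per library.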

How the data were processed

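Liver RNA of 9 mice was sequenced from 1 library each, and the authors deposited raw counts for each Ensembl gene ID. Per the labels' protocols, RNA was taken with Trizol and libraries were made with a NEBNext Ultra kit. Per the submitters' processing notes, the build was mm10 and Bowtie 0.12.2 was among the tools, with no role stated. The sources used here do not name the counting program, annotation version, strand setting or read length.

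Gene IDs were matched to GENCODE M21 (54409 of 54532). Counts were analysed in R 4.3.3 with edgeR 4.0.16: TMM factors, filterByExpr (minimum count 10, minimum total 15), group means over all 9 libraries, robust quasi-likelihood tests, two-sided, with Benjamini-Hochberg adjustment over 14763 genes and a threshold of 0.05. The SE was taken as the fold change (log2, fitted with no prior count) divided by the root of F. Replicates were separate mice. For levels between genes, counts were divided by the length of the transcript with the shorter genomic span, a choice made after seeing the data. Stretches of that transcript alone were searched for in all GENCODE M21 transcripts of other genes, on both strands. Wilson intervals (95%) and limits from counts of 0 cover counting error only. The workflow was tested on simulated data. DESeq2 1.42.0, limma 3.58.1 (voom), other scalings and filters and leaving out libraries were alternatives. A replicate number was shared by some libraries, and whether it pairs animals could not be decided, so the main fit has no block.

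The members and lists were chosen with earlier results of these data known. Named are all constant genes, the V genes with the highest mean CPM by locus (6 heavy, 6 kappa, 2 lambda) or the most counts in a library, the 3 smallest p in each direction of each comparison and a fixed set of B lineage genes, of which some are given only within their list and some are not reported here. Other genes were chosen after their values were seen.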

Additional observations from a re-analysis of the deposited data

How the results depend on the processing

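edgeR called 0 immunoglobulin genes in each comparison with RLE or upper-quartile factors, with at least 1 CPM in 3 libraries, with robust = FALSE, with limma-voom and without the 3 libraries that went against their labels. DESeq2 called 11 in HFD + PBS against normal diet, 22 in HFD + IgG1 against HFD + PBS and 1 in HFD + IgG1 against normal diet. With no filter on low counts edgeR called 4 in the first comparison and 5 in the second, with only the 6 libraries compared 1 in the first, and with only the antibody library whose label reads IgG1, the one with high Apoe counts, it called 1 of 148 in the second (0.676%, against 3.45% of all genes). With each library left out in turn the counts ran from 0 to 6, from 0 to 20 and stayed at 0, and both maxima came without HFD + IgG1 replicate 6, where the shares of all genes called were 3.79% and 15.5%. The cause was not tested. The summed constant level kept its sign throughout, at 0.68 to 1.42, -2.05 to -1.22 and -1 to -0.18 with a library left out.

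With the replicate number as a block edgeR called 0 genes in each comparison, the median over tested members was 1.20, -0.89 and 0.08, and in HFD + IgG1 against HFD + PBS the log2 fold change of Ighg1 was 0.82 and that of Jchain 0.10, both of opposite sign. In HFD + IgG1 against HFD + PBS, 25 of the 104 tested members were positive with the block, against 4 without it. The correlations of same-numbered libraries ran from -0.538 to 0.032. Nothing in the titles says that the numbers pair animals, and with so few pairs these correlations cannot decide it. The log2 fold change of Igha in HFD + PBS against normal diet, near 0, was -0.03 with limma-voom and -0.18 with the block, and ran from -0.23 to 0.29 with a library left out. Among V genes with at least 10 counts, a median of 48 genes carried 90% of the counts, against 85 with no minimum, and the effective number was 40.2, against 60.4. The kappa share was 92% by V genes, against 96.8% by constant genes.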

Other observations

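Pseudogenes and segments outside the V and constant genes held few counts. The 155 annotated V pseudogenes had 1 to 10 counts per library, the 19 D genes 0 to 2 and the 14 J genes 2 to 28. Igkc overlaps the noncoding gene Gm30211 on the same strand, which had 25 counts over the 9 libraries, against 33092 for Igkc. B cell follicle and homing genes summed to 5.74 to 39.7 CPM in HFD + IgG1, 32.7 to 204 in HFD + PBS and 13.4 to 17.8 in normal diet, of which Cxcl13 was the main part in the libraries with high sums.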
